A study of Arabidopsis thaliana with 6 samples.

Results

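Chloroplast-encoded photosynthesis genes were compared between sieve-element-marked and unmarked protoplasts of Arabidopsis thaliana cotyledons. The members were the genes of the plastid genome whose symbol begins with psa, psb, pet or ndh, or is rbcL or atp with a capital letter, measured by an array probe set paired with exactly 1 gene. There were 39 such genes among 16550 genes measured in this way, out of 44 symbols of this kind in the plastid annotation. The other 5 symbols had no probe set of their own: psbC and psbD shared 1, atpB and atpE shared another, and both ndhB probe sets were paired with both copies of that gene, so none of the 5 was analysed here. The data were 6 Affymetrix arrays, 3 of YFP-positive protoplasts, called phloem by the submitters, and 3 of YFP-negative protoplasts, called non-phloem. All came from the line SEOR1pro::SEOR1-YFP, which carries a fluorescent fusion of a sieve element protein under its own promoter, so that both groups hold the transgene and were parted by the fluorescence sort. Seedlings were grown for 6 days, and their cotyledons were then cultured for 72 hours with bikinin at 10 µM, an inhibitor of GSK3-like kinases, and with the synthetic auxin 2,4-D at 1.25 mg/L and the cytokinin kinetin at 0.25 mg/L. This culture, known as VISUAL, turns leaf mesophyll cells into vascular cells, and YFP-negative cells had the same medium and hours as YFP-positive cells. Separate cultures or sorts behind the replicates are not stated in the labels, and each p-value therefore covers the scatter among these arrays, part or all of which can be technical.

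The plastid genome is a small circular genome kept from the cyanobacterial ancestor of chloroplasts. It encodes core subunits of each thylakoid complex and the large subunit of Rubisco, while the nucleus encodes the antenna proteins, many peripheral subunits and the small subunit of Rubisco. Most of its photosynthesis genes lie in clusters that are transcribed together, mainly by a bacterial-type RNA polymerase, and then processed into shorter RNAs. Mesophyll cells are rich in chloroplasts, whereas sieve elements lose their nucleus and keep plastids with little or no photosynthetic role.

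The deposited values are array intensities on the log2 scale, for which the submitters' processing notes name RMA, and a difference is always YFP-positive minus YFP-negative on that scale. Samples carry replicate numbers 1 to 3 in both groups, and arrays of the same number deviated from their group means together, with correlations across genes of 0.664, 0.607 and 0.489 for numbers 1 to 3. Differences within a number are called pair differences below. Both arrays of a number gave exactly the same value for 47.8% of all genes in pair 1, against 6.76% and 6.54% in pairs 2 and 3, and 4 of the 39 members, petN, psbM, psbT and atpI, were equal in pair 1. Each group had 3 arrays, and that number limits the precision of every value.

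No chloroplast-encoded photosynthesis gene passed the test, yet nearly all had negative differences. In limma at a Benjamini-Hochberg adjusted p under 0.05 over all genes, 0 of 39 members were called, where 1.08% of all genes were. With the replicate number as a block it was also 0 of 39, against 0.544% of all genes. Shares are given below also for the brighter genes, those above their array's median on at least 3 arrays, which all 39 members were. At an unadjusted p under 0.05 in limma, 3 members were lower, rbcL, psbZ and atpA, which is 7.69% beside 3.43% of all genes and 5.91% of brighter genes. None was higher (0 of 39), beside 4.54% of all genes and 7.98% of brighter genes. With the block the same 3 were lower, beside 6.44% and 11.3%, so the members' share was not above that of brighter genes there. Of the 3, atpA only just met this cut, at an unadjusted p of 0.04999 in limma with the block. The log2 difference was below 0 in 38 of 39 members, or 97.4%, against 54.7% of all genes and 45.4% of brighter genes. The median difference over the members was -0.48, within a span of -1.34 for rbcL to 0.17 for petD. The median was -0.04 over all genes and 0.06 over brighter genes. Members share plastids, transcripts and arrays, so 39 genes are not 39 independent measurements. In these bulk samples, fewer cells of a type and less RNA per cell cannot be told apart.

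The pairs differed in how far the members lay below 0. In pair 1 the members' median was 0.00, with 16 below 0, 19 above and 4 equal. The 41% of members below 0 stood beside 30.5% of all genes and 43.1% of brighter genes, and the 48.7% above 0 beside 21.8% and 30.3%. These shares also reflect exact ties, which were rarer in the members: 4 of 39, beside 47.8% of all genes and 2355 of 8832 brighter genes. In pair 2 the members' median was -0.48, with 30 below 0 (76.9% beside 49.4% of all genes and 42.8% of brighter genes) and 9 above. In pair 3 it was -1.06, with 38 below 0 (97.4% beside 48.2% of all genes, and 45.3% of brighter genes) and 1, ndhJ, above. The corresponding medians of all genes were 0.00 in each pair, and those of brighter genes were 0.00, 0.14 and 0.09 in pairs 1 to 3. A pair difference of -1 or lower, that is at least 2-fold, was met by 0 members in pair 1, 7 in pair 2 and 25 in pair 3, against 3.37%, 8.80% and 10.8% of all genes in those pairs, and 14.4% of brighter genes in pair 3. Averaged over the members, YFP-positive arrays 1 to 3 stood at 7.82, 7.41 and 7.68, and YFP-negative arrays at 7.74, 7.89 and 8.80. YFP-negative replicate 3 was thus the highest array, and it held the highest of the 6 values in 30 of 39 members, beside 28.1% of all genes and 23.4% of brighter genes. Without that array the median was -0.15 and 26 of 39 members were below 0, and without both arrays of number 3 the median was -0.21 with 30 of 39 below 0. Only 14 members were below 0 in all 3 pairs, 35.9% beside 13.3% of all genes and 20.0% of brighter genes, and 0 were above 0 in all 3, beside 12.5% and 20.7%.

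**Figure D1:**
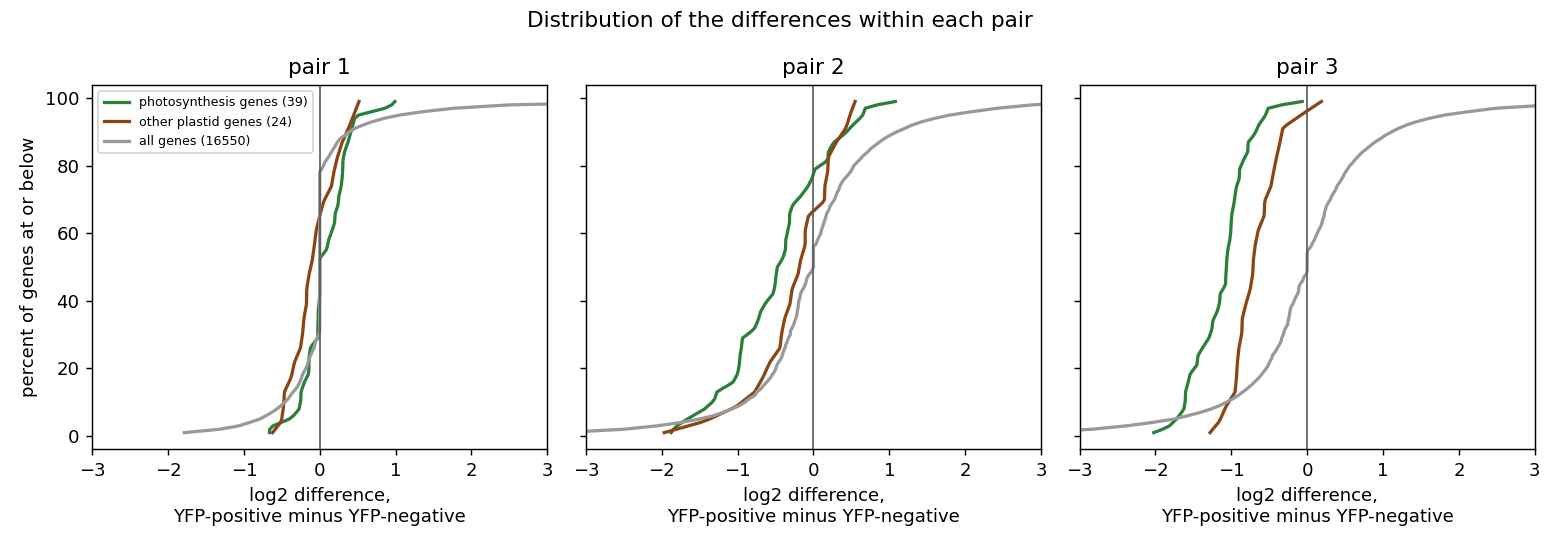
Percentile curves of the pair differences (x axis, log2, YFP-positive minus YFP-negative, drawn from -3 to 3) for the 39 photosynthesis genes, the 24 other plastid genes and all 16550 genes, in 1 panel for each pair. The curve of the photosynthesis genes crosses its middle at 0.00 in pair 1, -0.48 in pair 2 and -1.06 in pair 3.

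The large subunit of Rubisco, the enzyme that fixes carbon dioxide, had the largest difference and the smallest p of the members. rbcL (gene ID 844754) stood at 6.64, 6.15 and 6.07 in YFP-positive replicates 1 to 3, and at 7.30, 7.97 and 7.61 in YFP-negative replicates 1 to 3. All YFP-positive arrays lay below all YFP-negative arrays, and the widest gap was in pair 2. YFP-positive cells averaged 6.28 ± 0.31 (SD, n = 3) and YFP-negative cells averaged 7.63 ± 0.34 (SD, n = 3), which is 2.53-fold lower in YFP-positive cells, with a log2 difference of -1.34 (SE 0.30, 95% interval -2.08 to -0.61). Its adjusted p was 0.155 in limma and 0.174 with the replicate block, so it did not pass. The pair differences were -0.66, -1.82 and -1.54. Groups without overlap and with YFP-positive cells lower were found for 4 members, 10.3% beside 4.34% of all genes and 6.75% of brighter genes. Beside rbcL these were psbZ, atpA and psbE, and psbE is named here after its values were seen. Such groups were also found for 4 of 24 other plastid genes and 4 of 9 nuclear photosynthesis genes measured, so they were not particular to the members.

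**Figure D2:**
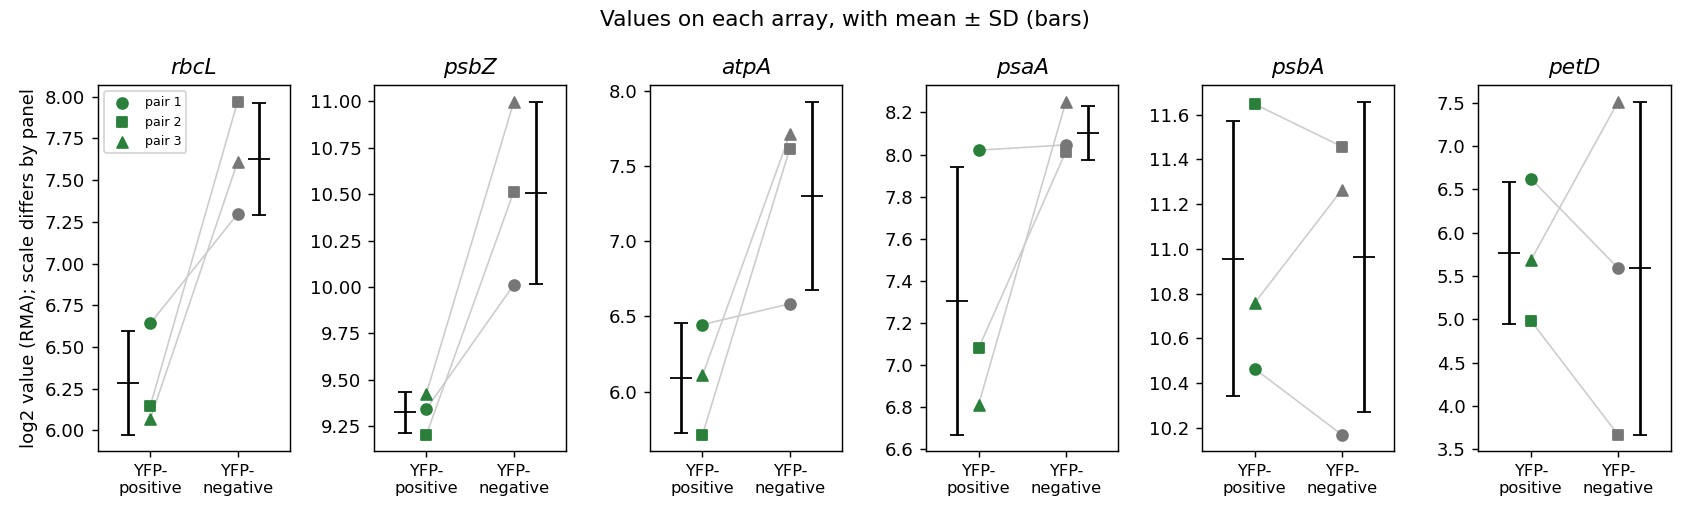
Log2 values of 6 photosynthesis genes on each array, with lines joining the arrays of a pair and bars for the mean ± SD of each group (n = 3); each panel has its own scale. The groups are apart in rbcL, psbZ and atpA, meet in psaA, and overlap in psbA and petD, where pair 3 runs against pairs 1 and 2.

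Photosystem II splits water and passes electrons to plastoquinone, and 13 of its plastid genes were measured. All 13 had negative differences, with a median of -0.45, and 0 passed. The gene with the smallest p was psbZ (gene ID 844774), a small membrane subunit. It stood at 9.34, 9.20 and 9.43 in YFP-positive cells, against 10.01, 10.51 and 11.00 in YFP-negative cells. The YFP-positive values lay close together and under every YFP-negative value, and all pairs differed the same way, by -0.67, -1.31 and -1.57. Its log2 difference was -1.18 (SE 0.32, 95% interval -1.95 to -0.41), with an adjusted p of 0.251 in limma, or 0.156 with the block.

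psbA (gene ID 844802), which encodes the D1 reaction centre protein that is replaced continually in the light, differed least of the 13. It stood at 10.46, 11.65 and 10.76 in YFP-positive cells and at 10.17, 11.46 and 11.26 in YFP-negative cells. The groups overlapped over nearly their whole range, and the sign of the difference differed between pairs, at 0.30, 0.19 and -0.51. Its difference was -0.01, with a 95% interval of -1.18 to 1.17 in limma without the block, which leaves room for a change of over 2-fold either way. With the replicate block the interval was narrower, at -0.66 to 0.64. The cytochrome b559 genes psbE and psbF differed by -0.45 and -0.60. psbE stood at 8.48, 8.39 and 8.50 in YFP-positive cells, against 8.69, 8.56 and 9.49 in YFP-negative cells, and its groups were apart by the narrow margin between YFP-positive replicate 3 and YFP-negative replicate 2. psbB, which encodes the inner antenna protein CP47, differed by -0.73, and psbN, needed for assembly of the complex, by -0.66. The remaining small subunits ran from -0.93 in psbT through -0.54 in psbL, -0.45 in psbK, -0.42 in psbJ, -0.40 in psbM and -0.35 in psbI to -0.03 in psbH. In pair 3 all 13 were below 0, from -1.63 in psbB to -0.51 in psbA, while in pair 1 only 3 were.

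Photosystem I, which passes electrons to ferredoxin, was represented by 5 genes, with a median difference of -0.48 and 0 calls. Its reaction centre is the pair of proteins encoded by psaA and psaB. psaA (gene ID 844768) stood at 8.02, 7.08 and 6.81 in YFP-positive cells, against 8.05, 8.01 and 8.25 in YFP-negative cells. YFP-positive replicate 1 was level with the YFP-negative arrays and the other YFP-positive arrays lay below them. The difference was -0.80 (SE 0.37, adjusted p = 0.757 in limma, or 0.434 with the block). psaB (gene ID 844770) stood at 9.04, 8.13 and 8.10 in YFP-positive cells, against 9.29, 8.21 and 9.36 in YFP-negative cells. Here the groups overlapped, and most of the difference of -0.53 came from pair 3, where it was -1.26. psaC, which carries the terminal iron-sulfur clusters, had pair differences of 0.40, 0.69 and -2.14, so that the lowest pair 3 value of any member stood beside values above 0. The small subunits psaI and psaJ differed by -0.48 and -0.07, and psaJ likewise was above 0 in pairs 1 and 2, at 0.09 and 0.65.

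The cytochrome b6f complex links the photosystems, and its 6 genes had a median difference of -0.49, with 5 below 0, 1 above and 0 calls. petA (gene ID 844748), encoding cytochrome f, had the smallest p. It stood at 8.87, 8.86 and 7.49 in YFP-positive cells, against 9.15, 9.34 and 8.56 in YFP-negative cells, with pair differences of -0.27, -0.48 and -1.06. Every pair was below 0, but YFP-negative replicate 3 lay below YFP-positive replicates 1 and 2, and the difference was -0.60 (SE 0.47). petB (gene ID 844729), encoding cytochrome b6, stood at 9.54, 9.55 and 9.19 in YFP-positive cells, against 9.24, 10.05 and 10.38 in YFP-negative cells. Its YFP-positive values were nearly level, and YFP-negative replicate 1 was the lowest of its group and below YFP-positive replicates 1 and 2.

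petL (gene ID 844744), a small subunit, had the largest difference of the complex at -0.82 (SE 0.93). Its values of 4.62, 3.45 and 5.54 in YFP-positive cells and 4.29, 4.51 and 7.25 in YFP-negative cells overlapped widely, with YFP-negative replicate 3 far above the rest. petD (gene ID 844728), encoding subunit IV, was the only member with a difference above 0. It stood at 6.63, 4.99 and 5.68 in YFP-positive cells, against 5.59, 3.67 and 7.51 in YFP-negative cells. YFP-negative cells held both the lowest and the highest of these values. The pair differences were 1.03, 1.32 and -1.83, so the mean of 0.17 (SE 1.0) joins pairs of opposite sign. petG and petN, both small subunits, differed by -0.04 and -0.53; petG was above 0 in pairs 1 and 2, at 0.92 and 0.20, and stood at -1.24 in pair 3. Without YFP-negative replicate 3 the median of the 6 genes turned to 0.21.

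The chloroplast ATP synthase turns the proton gradient into ATP, and the 4 genes measured here, of the cluster atpI-atpH-atpF-atpA, had a median of -0.61 with all 4 below 0 and 0 calls. atpA (gene ID 844790) encodes the alpha subunit of the catalytic head. It stood at 6.45, 5.71 and 6.11 in YFP-positive cells, against 6.58, 7.62 and 7.71 in YFP-negative cells. The groups did not overlap, though in pair 1 the values were close, and the pair differences were -0.14, -1.91 and -1.61. Its log2 difference was -1.22 (SE 0.40, 95% interval -2.19 to -0.25), with an adjusted p of 0.392 in limma. atpH (gene ID 844788), the subunit of the membrane ring, stood at 10.06, 9.42 and 9.33 in YFP-positive cells, against 9.82, 10.15 and 10.62 in YFP-negative cells. YFP-positive replicate 1 exceeded YFP-negative replicate 1, the reverse of pairs 2 and 3, and the difference was -0.59. The other membrane subunit genes atpF and atpI differed by -0.62 and -0.37.

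The NDH complex takes part in cyclic electron flow around photosystem I, and all of its 10 genes measured here had negative differences, with a median of -0.45 and 0 calls. ndhK (gene ID 844761) had the smallest p of the 10. It stood at 6.59, 5.27 and 6.22 in YFP-positive cells, against 6.74, 6.25 and 6.86 in YFP-negative cells, with a difference of -0.59 (SE 0.41). All pairs were below 0, at -0.15, -0.98 and -0.64, and the groups overlapped. ndhC (gene ID 844762) stood at 10.53, 10.88 and 10.57 in YFP-positive cells, against 10.55, 11.24 and 11.26 in YFP-negative cells, and the groups overlapped only through YFP-negative replicate 1. ndhG (gene ID 844739) had the largest difference at -0.87 (SE 0.97), with 6.06, 5.41 and 7.59 in YFP-positive cells and 6.08, 6.41 and 9.19 in YFP-negative cells. Both arrays of number 3 were high for this gene, and the groups overlapped while pairs 2 and 3 stood at -1.0 and -1.60. The other 7 ran from -0.52 in ndhA to -0.15 in ndhI, and ndhJ was the single member above 0 in pair 3, at 0.21.

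**Figure D3:**
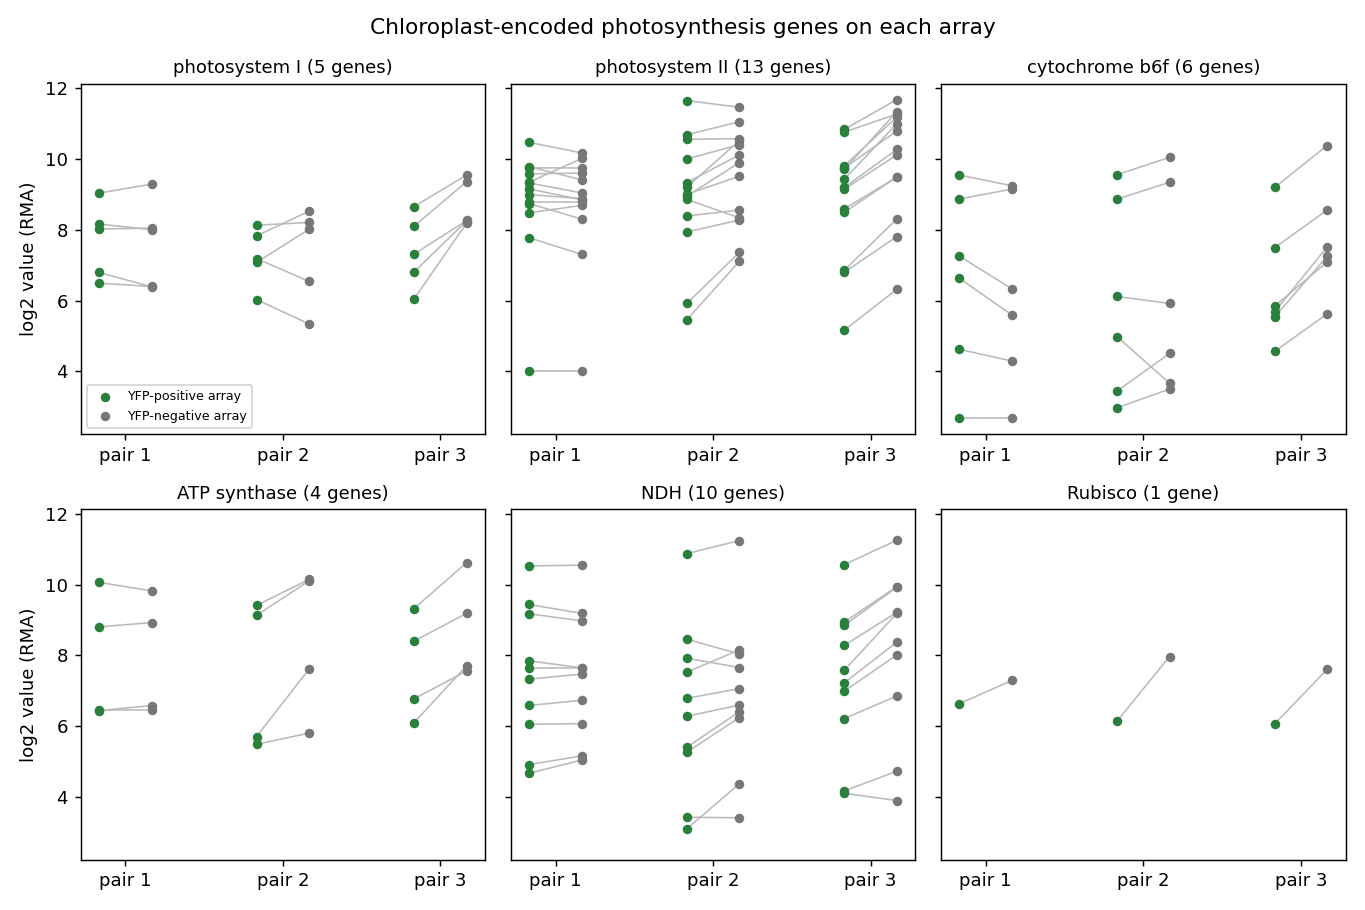
Log2 values (y axis) of all 39 genes by complex, with each gene's YFP-positive array to the left of its YFP-negative array in each pair and a line joining them. Lines run in both directions in pair 1 and upward to the YFP-negative array in pair 3 for every gene but ndhJ.

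Set side by side, the complexes with several genes had pooled medians from -0.61 for ATP synthase to -0.45 for NDH and photosystem II, and rbcL stood lower at -1.34. These medians moved with the arrays used. With arrays left out they ran from -0.85 to -0.05 for photosystem I, -0.88 to -0.17 for photosystem II, -0.78 to 0.21 for cytochrome b6f, -0.94 to -0.39 for ATP synthase and -0.77 to -0.13 for NDH, each nearest to 0 or above it without YFP-negative replicate 3 other than ATP synthase, which was so without both arrays of number 3. Without YFP-positive replicate 2 NDH stood at -0.16 and ATP synthase at -0.65. No test of the difference between complexes was made. Within pair 1 the medians were 0.09 for photosystem I, 0.12 for photosystem II, 0.32 for cytochrome b6f, -0.06 for ATP synthase and -0.02 for NDH, and rbcL stood at -0.66. In pair 2 they were -0.08, -0.40, -0.48, -0.85 and -0.34 in the same order, with rbcL at -1.82. In pair 3 they were -1.26, -1.05, -1.21, -1.04 and -0.97, with rbcL at -1.54. The complexes thus lay within 0.3 of each other in pair 3 and were more spread in pair 2, and rbcL lay below each of these medians in every pair. That sets a single gene against medians, and rbcL was not the lowest member in any pair. Lower were psbZ at -0.67 in pair 1, atpA at -1.91 in pair 2 and, among others, psaC at -2.14 in pair 3.

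**Figure D4:**
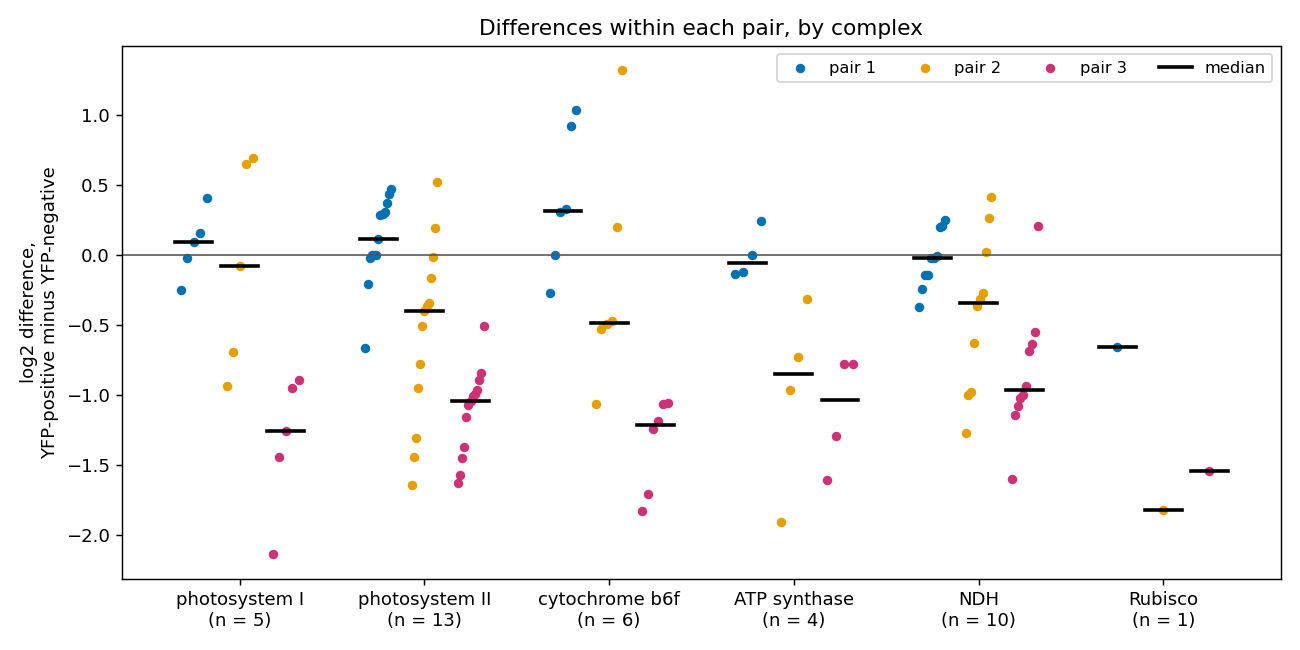
Pair differences (y axis, log2, YFP-positive minus YFP-negative) of each gene by complex, coloured by pair, with black bars for the medians. Medians of the 5 complexes with several genes lie between -0.06 and 0.32 in pair 1 and between -1.26 and -0.97 in pair 3.

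Within some transcribed clusters the members' pooled differences were close and within others they were far apart, a spread that was not tested. The clusters used here are textbook units of the plastid genome, and 9 of them held at least 2 members. The cluster psbB-psbT-psbH-petB-petD ran, in its order, through -0.73, -0.93, -0.03, -0.46 and 0.17, and in pair 2 from -1.65 in psbT to 1.32 in petD. psbN, which lies between psbT and psbH and is read from the other strand, differed by -0.66; whether the probe sets separate the strands is not given in the sources used here. In the cluster of ndhH, ndhA, ndhI, ndhG, ndhE, psaC and ndhD, pair 2 ran from -1.0 in ndhG to 0.69 in psaC, with 3 genes below 0 and 4 above. The 4 genes of psbE-psbF-psbL-psbJ stayed between -0.60 and -0.42, and those of ndhC-ndhK-ndhJ between -0.59 and -0.36. Cluster medians ran from -0.66 for psaA and psaB to -0.07 for petL, petG and psaJ. Mean level and difference were nearly unrelated over the 39 members, with a Pearson correlation of 0.083 and a Spearman correlation of 0.105, a description over genes that share the same arrays.

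**Figure D5:**
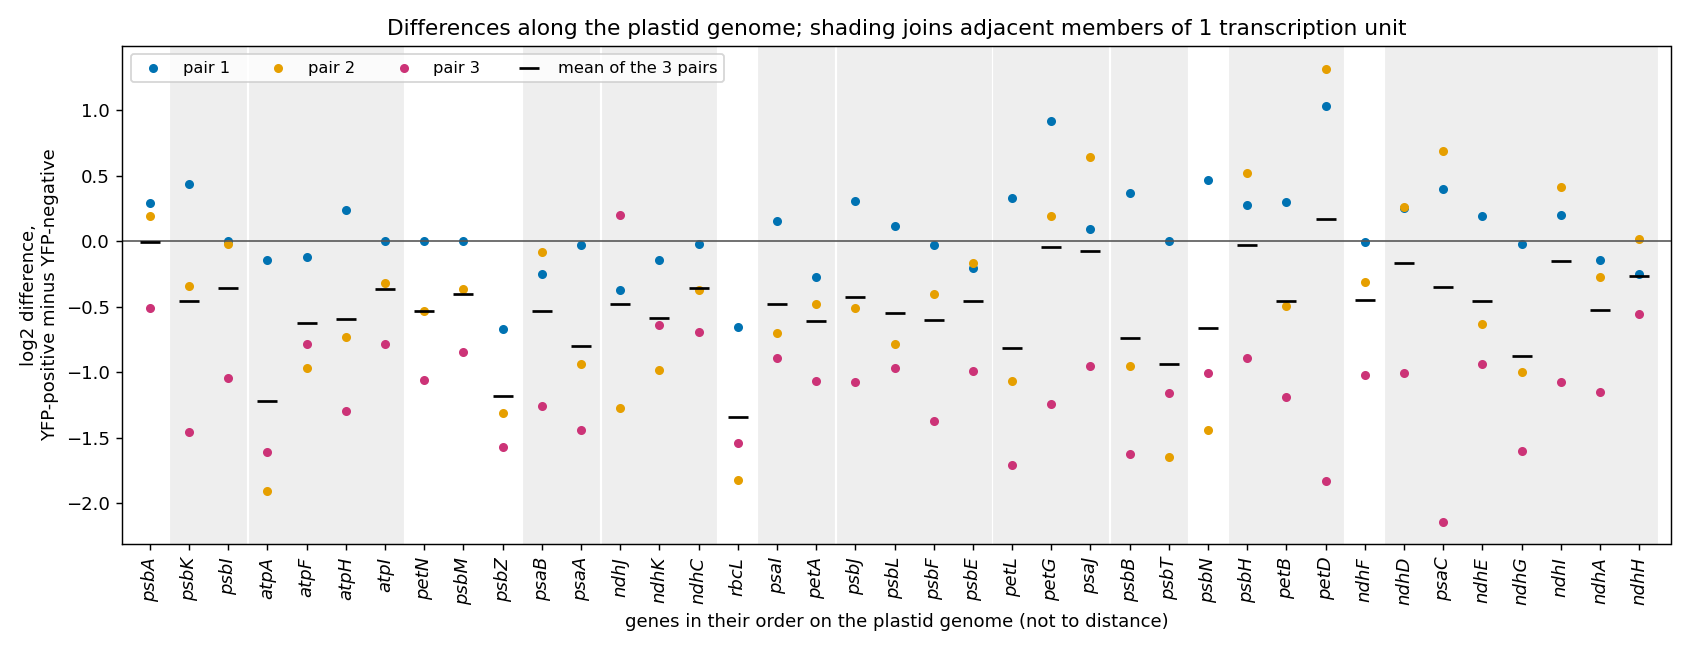
Pair differences (points) and their mean (black dashes) of the 39 genes in their order on the plastid genome, on a log2 axis (YFP-positive minus YFP-negative); shading joins adjacent members of a transcription unit. Pair 3 lies below 0 for every gene but ndhJ, and the pairs are far apart in petD and psaC.

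The 24 other plastid genes, which mostly encode ribosomal proteins and RNA polymerase subunits, had a median difference of -0.35, with 22 below 0 and 0 calls. Below 0 were 54.7% of all genes and 45.4% of brighter genes, which all 24 were, and 1.08% of all genes were called. Pair medians of the 24 were -0.12, -0.19 and -0.71, beside 0.00, -0.48 and -1.06 for the photosynthesis genes. In pair 3, 3 of 24 reached -1 or lower, beside 25 of 39 photosynthesis genes, 10.8% of all genes and 14.4% of brighter genes. The difference between these sets was not tested. At an unadjusted p under 0.05 in limma 1 of the 24, rpl20, was lower, beside 3.43% of all genes and 5.91% of brighter genes. None was higher (0 of 24), beside 4.54% and 7.98%. With the replicate block 3 of 24 were lower, rpl20, rpoC1 and rpl14, beside 6.44% of all genes and 11.3% of brighter genes. That is near the share of brighter genes. Smallest p-values in this set belonged to rpl20, rpl14 and rpoC1, with differences of -0.80, -0.50 and -0.90.

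Nuclear photosynthesis genes were mostly below 0 as well. Of 53 listed nuclear photosynthesis genes 9 were measured under a single gene, and all 9 were brighter genes. The median difference was -0.71, and 8 had negative differences, beside 54.7% of all genes and 45.4% of brighter genes. In limma 0 passed, with or without the block. At an unadjusted p under 0.05 in limma 1 of 9, PSBW, was lower, beside 3.43% of all genes and 5.91% of brighter genes, and 0 were higher. With the replicate block 3 of 9 were lower, PSBW, ATPC1 and PSAE-1, beside 6.44% and 11.3%. PSBW, a photosystem II subunit, stood at 7.51, 8.00 and 7.82 in YFP-positive cells, against 8.08, 9.40 and 9.25 in YFP-negative cells, and the groups did not overlap. ATPC1, the gamma subunit of the chloroplast ATP synthase, was likewise apart, at 4.61, 4.97 and 3.88 in YFP-positive cells, against 5.21, 5.90 and 5.11 in YFP-negative cells. PSAE-1, a photosystem I subunit at the ferredoxin side, stood at 6.90, 6.59 and 7.22 in YFP-positive cells, against 7.15, 7.85 and 8.09 in YFP-negative cells, and only YFP-positive replicate 3 and YFP-negative replicate 1 overlapped. Their differences were -1.13, -0.92 and -0.79, with adjusted p-values of 0.502, 0.66 and 0.686 in limma, or 0.174, 0.161 and 0.318 with the block. LHCB4.1, a minor antenna gene, was the exception at 0.05. Pair medians of the 9 were -0.25, -0.63 and -1.12. In pair 1, 7 of the 9 were below 0, 2 were equal and 0 were above. Only 1 of 23 nuclear genes of plastid transcription was measured, AT5G15700 (RPOTMP, a phage-type RNA polymerase), at -0.43, and 1 of 11 of plastid RNA stability and processing, AT4G30825 (BFA2), at -0.09; neither passed.

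The nuclear photosynthesis genes double as mesophyll markers, and their mean level ran from 6.14 to 6.38 on YFP-positive arrays and from 6.44 to 7.25 on YFP-negative arrays. Of the phloem list 5 of 15 were measured, SEOR1 itself not among them, with mean levels of 4.48 to 5.76 on YFP-positive and 3.22 to 4.72 on YFP-negative arrays. CLE45, which encodes a protophloem signalling peptide, had the largest difference of the 5 at 2.15 (limma adjusted p = 0.0951, or 0.0444 with the block). Among YFP-negative arrays the phloem list too had its highest mean level on replicate 3, at 4.72, beside 4.13 and 3.22 on replicates 1 and 2. YFP-negative replicate 3, the array with the highest plastid values, also held the highest of the 6 values for all 4 measured markers of other cell types. These types were epidermis and guard cells, companion cells and phloem parenchyma, and xylem. The same array was highest for 28.1% of all genes and 23.4% of brighter genes. On YFP-positive arrays the guard cell regulator FMA was at most 2.33, against 5.42 on this array, and the guard cell lineage gene MUTE at most 1.27, against 2.05. The sucrose transporter gene SWEET11 was at most 5.08 on YFP-positive arrays, against 7.92, and the xylan synthesis gene GUT2 at most 2.46, against 3.50. FMA, MUTE and GUT2 were dim, above the array median on fewer than 3 arrays, and MUTE was below this array's median of 2.80 as well. The share of brighter genes is therefore no match for these dim markers, and a share over dim genes alone is not given. These lists were thin, with 2 of 5 genes of epidermis and guard cells, 1 of 6 of companion cells and phloem parenchyma, and 1 of 8 of xylem, and 0 of these passed. Their part in the plastid values was not tested.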

How the data were processed

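The authors deposited 1 table of log2 values for 38408 probe sets on 6 arrays, and the submitters' processing notes name RMA, without version or settings; the log2 scale was read from the values, -0.11 to 13.39. Amplification of total RNA with a NuGEN Ovation kit and biotin labelling are recorded per the labels' protocols. Array medians ran from 2.20 to 2.92 in YFP-positive and from 2.10 to 2.80 in YFP-negative cells.

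Probe sets were named through the platform annotation and the RefSeq gene table of TAIR10.1, which matched 16411 of 16550 gene IDs. No build is named for the arrays, so no coordinates are printed. Where a gene had several probe sets the brightest on average was used; no member had several. Differences were fitted over all genes with limma 3.58.1 in R 4.3.3 (lmFit, eBayes), two-sided, with Benjamini-Hochberg adjustment and a threshold of 0.05, after a check on simulated data. No filter was used. Standard errors and intervals are from the fit without the replicate block unless stated. How arrays of different numbers were put on a common scale is unknown, so pair differences stand beside pooled ones. Alternatives were the replicate block, other scalings, a filter, a variance trend and arrays left out. Values on every array are given for the member of each complex with the highest mean, the smallest p or the largest absolute difference. They are also given for members above 0, for a short set of core genes and for the 3 nuclear photosynthesis genes of smallest p. Differences alone are given for the genes named among the other plastid genes and the nuclear genes of plastid transcription and RNA processing. Replicate numbers were read from sample titles and taken as pairs because each same-numbered correlation of deviations exceeded 0.1. Members and lists were chosen with earlier results of these data known.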

Additional observations from a re-analysis of the deposited data

How the results depend on the processing

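Under all 15 alternatives to the model, scaling, filter and arrays used, 0 of the 39 members were called, and 0 among the other plastid genes and the nuclear genes of photosynthesis, plastid transcription and plastid RNA processing; the marker lists were run in the 2 models alone, and CLE45 passed with the block. Over all genes there were 179 calls, and under the alternatives between 0 (without both arrays of number 1 or of number 3 in limma, where a count of 0 members says nothing) and 384 (median centring), among them 90 with the replicate block. The block changed no call among the members. The median of the members stayed below 0 throughout, at -0.47 with quantile normalization, -0.57 with median centring, -0.52 with equal values left out, and from -0.78 to -0.15 when arrays were left out. The number of members below 0 was 38 under each scaling and 26 to 39 when arrays were left out; this count was added after seeing the data. The cytochrome b6f median turned to 0.21 without YFP-negative replicate 3. With arrays left out, the differences of 15 members crossed 0, over these ranges: petD -0.79 to 1.18, psbH -0.34 to 0.40, psaJ -0.43 to 0.53, ndhG -1.49 to 0.11, petG -0.52 to 0.56, petL -1.39 to 0.13, psaC -1.0 to 0.55, ndhD -0.80 to 0.35, petN -1.16 to 0.31, psbM -1.26 to 0.26, atpI -0.77 to 0.11, psbK -0.90 to 0.048, psbA -0.40 to 0.24, ndhH -0.77 to 0.11 and ndhI -0.62 to 0.32. Those of the other 24 kept their sign, with rbcL between -1.68 and -1.10. Cluster medians crossed 0 for ndhH to ndhD (up to 0.11), psbK and psbI (up to 0.020) and petL, petG and psaJ (up to 0.37). The cause was not tested.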
